A study of Homo sapiens with 16 samples.

Results

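The connexin genes GJA1, GJA5, GJB2, GJB5, GJB6 and GJC1 are described here across 2 bladder cancer cell lines and 4 siRNAs. They were taken by gene name from the count and TPM tables, where all 6 were found, out of 21 connexin genes and 58721 genes listed. The set was chosen by the measured counts of GJA5, which rose strongly under the siRNA siFOXA1.1 alone in the line RT112, so the values of that comparison are given as a description. All 6 passed the filter on low counts in RT112, and 5 did in SCaBER, where GJA5 did not.

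Connexins are membrane proteins that assemble into rings, and a ring docks with one on the neighbouring cell to form a gap junction channel, through which ions and small molecules pass from cell to cell. Which connexins a cell makes decides which channels it can form, since some family members mix in 1 ring and others do not. The alpha family includes GJA1, the most widely expressed connexin, and GJA5, best known from atrial heart muscle and arterial endothelium. GJB2, GJB5 and GJB6 belong to the beta family of epithelia, and GJC1 to the gamma family, known from the embryonic heart and vascular smooth muscle. Loss of GJB2 function causes inherited deafness, and both GJB2 and GJB6 are found in stratified epithelium.

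RT112 (a line of luminal type) and SCaBER (of basal type) were transfected with 10 nM of siControl.1, siControl.2, siFOXA1.1 or siFOXA1.2, where siFOXA1.1 and siFOXA1.2 target FOXA1, a forkhead transcription factor of luminal urothelium. Each of the 8 combinations had 2 replicates, labelled as experiment batches, which gave 16 libraries of 3' mRNA sequencing. RT112 grew in RPMI and SCaBER in DMEM, both with serum, so line and medium cannot be told apart. Each line is a single established line, and nothing in the labels beyond the batch number says whether replicates were separate cultures, so p-values measure the spread between these libraries.

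Libraries held 4528513 to 7604581 counts. In RT112, FOXA1 was at 32.2 ± 3.91 CPM (counts scaled by the library total; SD, n = 2) under siControl.1, 23.3 ± 7.16 under siControl.2, 2.28 ± 1.36 under siFOXA1.1 and 12.6 ± 4.81 under siFOXA1.2. Its fitted log2 change in RT112 was -3.45 under siFOXA1.1 (SE 0.47, edgeR quasi-likelihood test, adjusted p = 1.39e-05) and -1.10 under siFOXA1.2 (SE 0.39, adjusted p = 0.215). In SCaBER it was at 0.217 to 2.21 CPM on average in every group, too low to check the knockdown. All 5 epithelial markers looked at were present in both lines. Summed luminal markers reached 382 to 1029 CPM in RT112 and 26.5 to 56.4 in SCaBER, where KRT20 and UPK1A were at 0, and summed basal markers 148 to 449 and 1822 to 3238 CPM. Mitochondrial genes took 27.0% ± 1.77 of counts under siFOXA1.1 in RT112 (SD, n = 2) against 18.5% to 20.7% on average under the other siRNAs there, and their part in the results below was not tested.

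The promoter windows of the members that had one are shown first, as the DNA beside which the values stand. RefSeq (GRCh38.p14) gave a window for 4 of the 6 members (GJA1, GJA5, GJB2 and GJB6), from 250 bases before to 50 after the start, 5′ to 3′ on the strand of the gene. Capitals mark matches, on either strand, to TGANTCA (AP-1) or GGGCGG (GC box). The forkhead core letters TGTTTAC and the variant TGTTTGC were searched as well and have no match in these windows; among 35116 windows of the same length, 3.42% hold the first, 3.89% the second, 7.71% the AP-1 letters and 45% the GC box. A match describes letters and not a bound site, and the absence of one says nothing of a factor.
GJA5, chr1:147773302-147773601, minus strand: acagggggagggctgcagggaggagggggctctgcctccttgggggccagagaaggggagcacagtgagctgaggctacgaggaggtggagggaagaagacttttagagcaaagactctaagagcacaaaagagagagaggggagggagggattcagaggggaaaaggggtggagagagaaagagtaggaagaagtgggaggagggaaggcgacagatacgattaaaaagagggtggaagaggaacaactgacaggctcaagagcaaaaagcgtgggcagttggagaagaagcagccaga
GJA1, chr6:121435396-121435695, plus strand: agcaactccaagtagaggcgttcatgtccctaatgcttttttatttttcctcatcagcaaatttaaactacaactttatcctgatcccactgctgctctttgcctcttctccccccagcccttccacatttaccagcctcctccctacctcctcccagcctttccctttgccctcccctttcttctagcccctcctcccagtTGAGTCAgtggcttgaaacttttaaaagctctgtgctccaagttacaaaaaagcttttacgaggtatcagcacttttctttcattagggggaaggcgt
GJB2, chr13:20192889-20193188, minus strand: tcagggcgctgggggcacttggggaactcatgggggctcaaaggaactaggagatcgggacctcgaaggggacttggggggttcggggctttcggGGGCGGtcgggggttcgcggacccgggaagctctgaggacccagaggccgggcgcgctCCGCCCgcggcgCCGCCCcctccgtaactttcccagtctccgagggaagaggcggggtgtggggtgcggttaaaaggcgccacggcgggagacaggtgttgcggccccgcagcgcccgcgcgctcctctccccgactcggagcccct
GJB6, chr13:20230929-20231228, minus strand: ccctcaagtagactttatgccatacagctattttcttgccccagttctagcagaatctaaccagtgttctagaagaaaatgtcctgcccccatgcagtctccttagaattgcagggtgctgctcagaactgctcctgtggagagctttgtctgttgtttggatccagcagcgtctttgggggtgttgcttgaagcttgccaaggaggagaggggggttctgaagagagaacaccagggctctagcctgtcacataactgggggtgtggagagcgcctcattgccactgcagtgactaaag

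The 4 windows differ in composition. The GJB2 window is 71.7% G and C with 33 CpG pairs and holds 3 GC box matches, while the others hold 4 (GJA5), 3 (GJA1) and 2 (GJB6) CpG pairs, against a median of 14 over all windows. The single AP-1 match lies in the GJA1 window, starting at base 203 from its 5′ end. A second GJA5 start listed by RefSeq, at chr1:147760553-147760852, holds none of these letters. GJB2 (chr13:20187470-20192938) and GJB6 (chr13:20221962-20232319) are neighbours with 29023 bases between them. The GJB6 window, which ends at base 20231228, lies wholly inside the span of its gene. It therefore surrounds an internal start, and the outermost 5′ end of GJB6 is not shown. GJB5 spans chr1:34755047-34758512, GJA5 chr1:147756199-147773351, GJA1 chr6:121435646-121449727 and GJC1 chr17:44794104-44831364.

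The order of the connexins was compared first in the control libraries, on the TPM scale of the deposited tables, where 3' reads do not grow with gene length and length scaling can misplace genes of unlike length. In RT112 under both siControl siRNAs (n = 4), GJB6 led the members at 32.5 ± 10.2 TPM (SD), followed by GJB5 at 16.9 ± 3.06, GJB2 at 10.6 ± 3.40, GJC1 at 5.92 ± 1.48, GJA1 at 2.46 ± 2.71 and GJA5 at 1.02 ± 0.363. The libraries of GJB6 lay above those of GJB5, and every later neighbour in that order overlapped with the next. In SCaBER under the siControl siRNAs (n = 4), GJB5 led at 62.8 ± 9.68 TPM, followed by GJC1 at 11.7 ± 2.20, GJA1 at 7.41 ± 3.74, GJB2 at 5.56 ± 1.49 and GJB6 at 4.44 ± 1.52. GJB5 stood apart from GJC1 there, the remaining neighbours overlapped, and GJA5 was at 0.

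The order turned on the CPM scale, which takes no account of gene length. In the RT112 controls GJB6 still led at 54.4 ± 15.4 CPM (SD, n = 4), but GJC1 came next at 26.0 ± 5.68, above GJB2 at 13.8 ± 4.09, GJB5 at 11.7 ± 1.91 and GJA1 at 4.17 ± 4.57. In the SCaBER controls GJC1 was at 39.5 ± 7.41 CPM and GJB5 at 33.4 ± 5.90, with overlapping libraries (30.5 to 48.5 against 27.8 to 38.6 CPM), so the lead of GJB5 over GJC1 in SCaBER and its place above GJB2 and GJC1 in RT112 are found on the TPM scale and not in CPM.

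**Figure D1:**
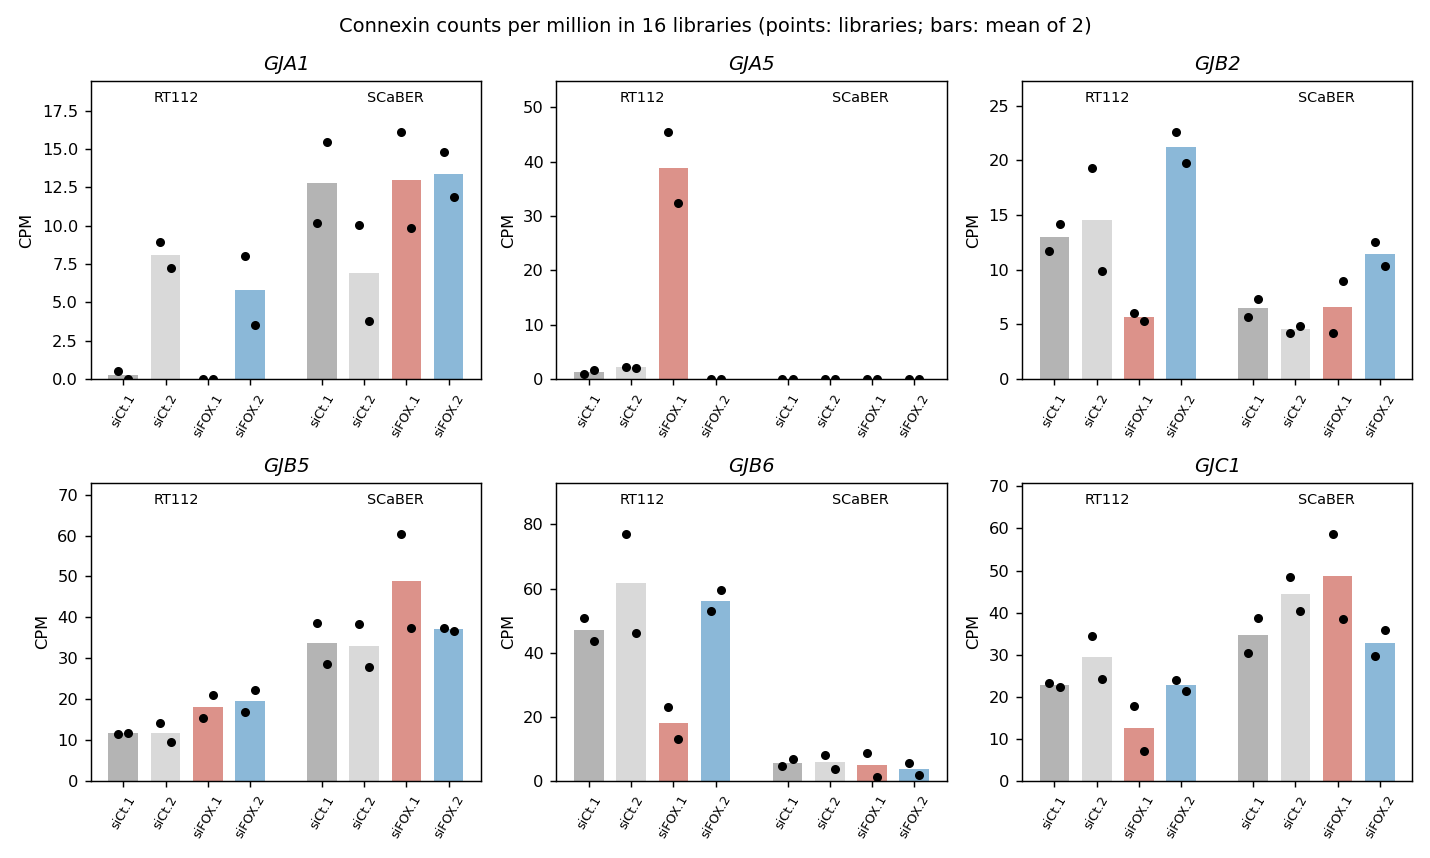
CPM of the 6 connexins in each library (points) with the mean of the 2 replicates (bars), for siControl.1 and siControl.2 (siCt.1 and siCt.2) and siFOXA1.1 and siFOXA1.2 (siFOX.1 and siFOX.2) in RT112 (left of each panel) and SCaBER (right). GJA5 reaches 32.4 and 45.4 CPM under siFOXA1.1 in RT112 and is at 0 in all SCaBER libraries, and GJA1 in RT112 is at 0 under siFOXA1.1 and at or near 0 under siControl.1.

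The 2 lines were compared under the siControl siRNAs, to ask how a luminal and a basal line differ in connexins at rest. The beta connexins GJB6 and GJB2 were higher in RT112, and GJB5 and GJC1 were higher in SCaBER. Of the 5 members tested, 4 passed the threshold (adjusted p under 0.05), 2 in each direction, where 43.4% of the 12309 genes tested passed (21.2% higher in RT112 and 22.2% lower). The median log2 difference, RT112 minus SCaBER, was -0.59 over the 5 members and 0.02 over all genes tested.

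GJB6 had 43.6 and 50.8 CPM under siControl.1 and 77.0 and 46.1 CPM under siControl.2 in RT112, and 4.49 and 6.70, and 7.95 and 3.75 CPM in SCaBER. Every RT112 library was above every SCaBER library. The log2 difference for GJB6 was 3.24 (SE 0.30, edgeR quasi-likelihood test, adjusted p = 5.52e-07).

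GJB2, which neighbours GJB6 on chromosome 13, had 11.7, 14.2, 19.3 and 9.87 CPM in the RT112 controls and 5.66, 7.33, 4.22 and 4.86 CPM in the SCaBER controls, each listed as siControl.1 and then siControl.2. The lines did not overlap here either. The log2 difference for GJB2 was 1.33 (SE 0.37, edgeR quasi-likelihood test, adjusted p = 0.00936).

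GJB5, a connexin of keratinocytes and placenta, ran the other way, with 11.3, 11.8, 14.1 and 9.45 CPM in the RT112 controls and 38.6, 28.7, 38.3 and 27.8 CPM in the SCaBER controls. All SCaBER libraries were above all RT112 libraries, and the log2 difference for GJB5 was -1.50 (SE 0.25, edgeR quasi-likelihood test, adjusted p = 0.000195).

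GJC1 had 23.3, 22.2, 34.5 and 24.2 CPM in the RT112 controls and 30.5, 38.7, 48.5 and 40.4 CPM in the SCaBER controls, so that 1 RT112 library (siControl.2 replicate 1) reached into the SCaBER range. The log2 difference for GJC1 was -0.59 (SE 0.23, edgeR quasi-likelihood test, adjusted p = 0.0471). That call was lost in 8 of the alternatives run, among them the fit with the replicate number as a block (adjusted p = 0.0643) and the fits without 6 of the 8 control libraries in turn (adjusted p = 0.0518 to 0.133).

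GJA1 was at 10.2 and 15.4 CPM under siControl.1 and at 10.1 and 3.75 CPM under siControl.2 in SCaBER, above siControl.1 but overlapping siControl.2 in RT112, and its line difference of -1.25 did not pass (SE 0.87, edgeR quasi-likelihood test, adjusted p = 0.270). GJA5, with no count in any SCaBER library, was too low to enter this test. Against the level that 3 counts per library would give, its mean of 1.70 CPM in the RT112 controls was at least 3.21-fold higher than in the SCaBER controls. That bound holds for the mean only, as single RT112 controls ranged from 0.920 to 2.13 CPM.

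**Figure D2:**
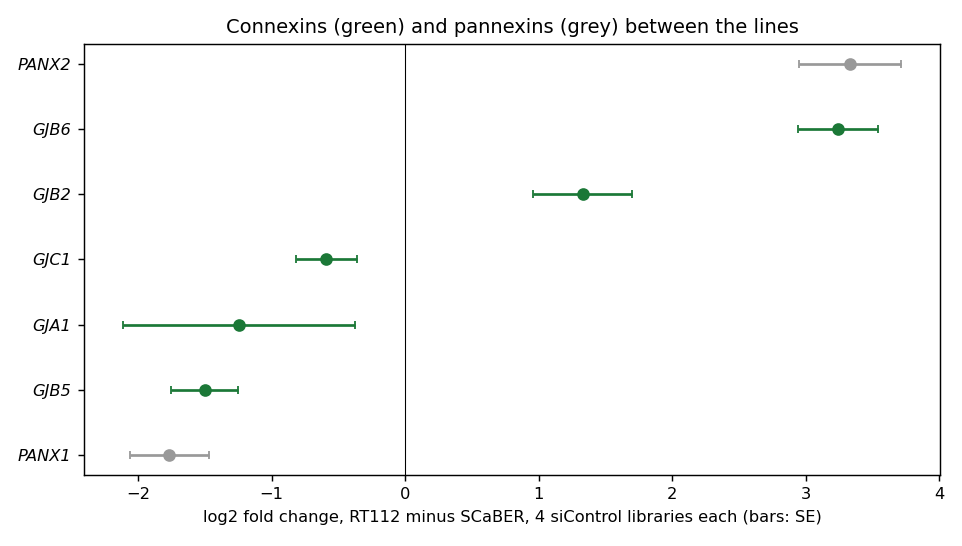
Log2 fold change between the lines under the siControl siRNAs (points) with its SE (bars), positive where RT112 is higher, for the 5 members tested (green) and for PANX1 and PANX2 (grey). GJB6 lies at 3.24 and GJB5 at -1.50, while GJA1 has the widest bar (SE 0.87).

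Under siFOXA1.1 in RT112, the comparison by which the set was picked, GJA5 went up while GJA1, GJB2, GJB6 and GJC1 had lower values. Of the 6 members, 4 passed the threshold there (1 higher and 3 lower), where 29.1% of the 13462 genes tested passed (14% higher and 15.1% lower), and nothing is read from this count. The median log2 fold change was -1.05 over the 6 members and -0.02 over all genes tested. In these bulk libraries, fewer cells that make a connexin and less RNA per cell cannot be told apart.

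GJA5 had 7 and 11 counts under siControl.1, 16 and 15 under siControl.2, 310 and 220 under siFOXA1.1 and 0 and 0 under siFOXA1.2 in RT112. The siFOXA1.1 libraries stood far above all others, and the siFOXA1.2 libraries were below every control. In CPM the means were 38.9 ± 9.18 under siFOXA1.1 (n = 2) and 1.70 ± 0.560 under the controls (n = 4), which is 22.9-fold.

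Against the level of 3 counts per library, GJA5 was at least 4.01-fold lower under siFOXA1.2 than in the controls, and at least 91.9-fold higher under siFOXA1.1 than under siFOXA1.2. Both siRNAs are directed at FOXA1, and GJA5 lay on opposite sides of the controls under them in both batches. On the log2(CPM + 1) scale, siFOXA1.1 differed from the controls of the same batch by 4.24 and 3.54, and siFOXA1.2 by -1.29 and -1.52. The fitted log2 fold change under siFOXA1.1 was 4.67 (SE 0.43).

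Since endothelium is a known source of GJA5, 6 endothelial markers were read in the same libraries. VWF, KDR, TEK and CLDN5 were at 0 in all RT112 libraries. The summed level of the 6 markers was 1.92 to 3.08 CPM under siFOXA1.1, 2.92 to 6.95 CPM under the controls and 3.41 to 11.2 CPM under siFOXA1.2. This sum rests on the remaining 2 markers, at 13 to 21 summed counts under siFOXA1.1. A part of endothelial genes in the GJA5 values was not tested. Of 4 muscle markers, MYH11, DES and NPPA were at 0 in all RT112 libraries. TNNT2, cardiac troponin T, had 99 and 122 counts under siFOXA1.1 in RT112, at most 1 under the controls and at most 10 under siFOXA1.2. It thus rose with GJA5 under siFOXA1.1 but did not follow its fall under siFOXA1.2. In SCaBER TNNT2 reached 9 counts under siFOXA1.1, where GJA5 was at 0. The part of TNNT2 in the GJA5 values was not tested. Of 6 fibroblast markers, COL3A1, DCN and PDGFRB were at 0 in all RT112 libraries, and 2 exceeded 3 counts in any. Their sum was 103 to 109 CPM under siFOXA1.1, 84.6 to 137 CPM under the controls and 142 to 146 CPM under siFOXA1.2. Summed leukocyte markers were at 0 under siFOXA1.1.

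GJA1 had 4 and 0 counts under siControl.1, 67 and 52 under siControl.2, 0 and 0 under siFOXA1.1 and 55 and 26 under siFOXA1.2 in RT112. The libraries thus fell apart across the targets, with siControl.1 and siFOXA1.1 at or near 0 and siControl.2 and siFOXA1.2 well above. Against the level of 3 counts per library, GJA1 was at least 18.3-fold lower under siFOXA1.1 than the mean under siControl.2. By contrast siControl.1, at 0.263 CPM on average, was itself under that level. The value against both controls together, at least 9.46-fold lower, rests on siControl.2 alone.

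GJB6 under siFOXA1.1 had 23.1 and 13.0 CPM in RT112, below all 4 controls (43.6 to 77.0 CPM), and its mean was 33.2% of the control mean. GJB2 had 6.00 and 5.30 CPM under siFOXA1.1, also below all 4 controls (9.87 to 19.3 CPM), at 41.1% of the control mean. The fitted log2 fold changes were -1.46 for GJB6 (SE 0.27) and -1.16 for GJB2 (SE 0.41), so that both chromosome 13 neighbours had lower values in both batches.

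GJC1 had 17.9 and 7.07 CPM under siFOXA1.1 in RT112, below the controls (22.2 to 34.5 CPM), with a log2 fold change of -0.94 (SE 0.35) that did not pass. The 2 replicates differed widely, and the log2 fold change of GJC1 was -0.44 without siFOXA1.1 replicate 2 and -1.72 without replicate 1. GJB5 had 15.4 and 20.9 CPM under siFOXA1.1, above the controls (9.45 to 14.1 CPM), with a log2 fold change of 0.76 (SE 0.35) that did not pass either.

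**Figure D3:**
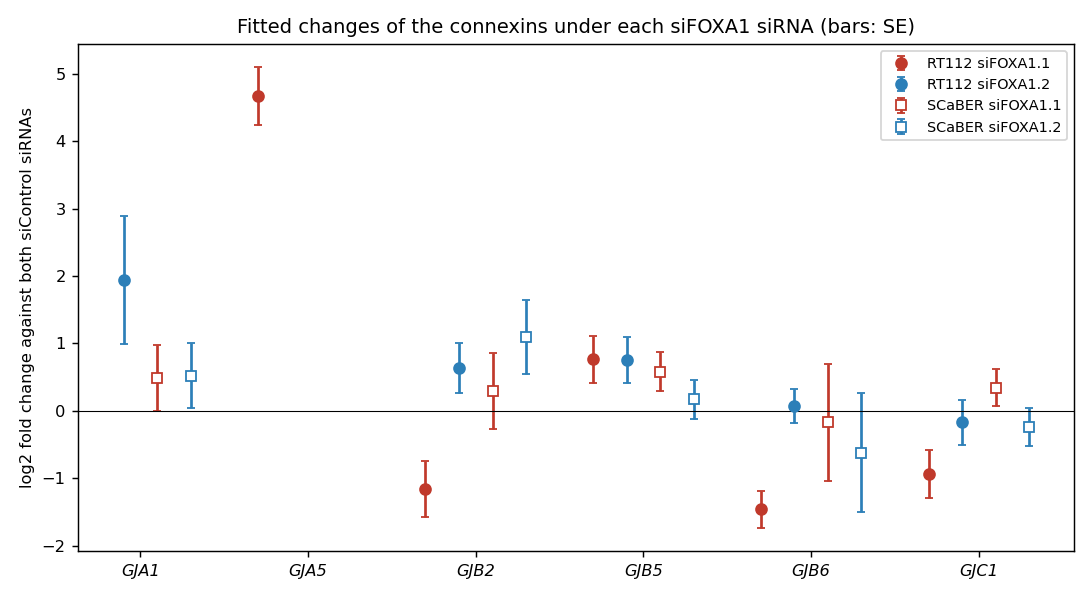
Fitted log2 fold change against both siControl siRNAs (points) with its SE (bars) for each member under siFOXA1.1 (red) and siFOXA1.2 (blue) in RT112 (filled circles) and SCaBER (open squares). GJA1 under siFOXA1.1 and GJA5 under siFOXA1.2 in RT112 are left out since both their libraries are at 0, as is GJA5 in SCaBER; GJB2 and GJB6 in RT112 lie at -1.16 and -1.46 under siFOXA1.1 and at 0.64 and 0.08 under siFOXA1.2.

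siFOXA1.2 was set against the same 4 controls in RT112, so its values share them with those of siFOXA1.1. The choice of the set also used the GJA5 level under siFOXA1.2, described above, so nothing is read from its call. Apart from GJA5 no member passed the threshold in RT112, where 1.78% of the genes tested passed (0.899% lower). The median log2 fold change was 0.36 over the 6 members and 0.02 over all genes tested.

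GJB2 had 22.6 and 19.8 CPM under siFOXA1.2, both above the highest control at 19.3 CPM, and its log2 fold change was 0.64 (SE 0.37, edgeR quasi-likelihood test, adjusted p = 0.569). GJB5 had 16.8 and 22.1 CPM, also above all 4 controls, and its log2 fold change of 0.75 (SE 0.35, adjusted p = 0.413) was close to the 0.76 under siFOXA1.1. GJB6 had 52.9 and 59.5 CPM, within the range of the controls, a log2 change of 0.08 (SE 0.25, adjusted p = 0.963).

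GJC1 had 24.0 and 21.3 CPM under siFOXA1.2 in RT112, a log2 change of -0.17 (SE 0.34, edgeR quasi-likelihood test, adjusted p = 0.931), and its lower replicate was just under the lowest control. GJA1 had 8.01 and 3.55 CPM, both above siControl.1 and 1 of them below siControl.2, which was a log2 change of 1.94 (SE 0.95, adjusted p = 0.454). Its controls were themselves split, as given above.

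Set directly against each other in RT112, siFOXA1.1 and siFOXA1.2 differed past the threshold in 4 of the 6 members (GJA5 higher; GJA1, GJB2 and GJB6 lower under siFOXA1.1), where 24.7% of all genes tested did (11.4% higher and 13.3% lower), and the rule that picked the set used this contrast too. The log2 difference was -1.80 for GJB2 (SE 0.46), -1.54 for GJB6 (SE 0.30), -0.76 for GJC1 (SE 0.40) and 0.01 for GJB5 (SE 0.41). GJB2 and GJB6 had lower values under siFOXA1.1 than under siFOXA1.2 in both batches. With both FOXA1 siRNAs taken as 1 group in RT112, 0 of 6 members passed, against 0.0966% of all genes tested.

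The 2 control siRNAs were compared as the background of the siRNA comparisons. In RT112 0 of the 6 members passed between siControl.1 and siControl.2 (1 at an unadjusted p under 0.05, and 1 by DESeq2, both GJA1), where 2.11% of the genes tested passed. GJA1, with the counts given above, had a log2 difference of -4.75 between siControl.1 and siControl.2 (SE 1.34, edgeR quasi-likelihood test, unadjusted p = 0.00226, adjusted p = 0.0823), and over the alternatives run its adjusted p went from 0.000947 to 0.384. Within batches the difference for GJA1 was -2.70 and -3.04 on the log2(CPM + 1) scale, lower under siControl.1 in both. The other 5 members differed by -0.65 to 0.03 on the log2 scale between the RT112 controls.

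In SCaBER no connexin of the set passed the threshold under either FOXA1 siRNA. Under siFOXA1.1 0 of 5 members tested passed, against 7.87% of the 13407 genes tested, and under siFOXA1.2 0 of 5, against 0.0373%. By edgeR none had an unadjusted p under 0.05 in either comparison, and DESeq2 called none. The median log2 fold change of the 5 members was 0.34 under siFOXA1.1 and 0.17 under siFOXA1.2, and 0.01 over all genes in both.

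In SCaBER GJB5 had 60.4 and 37.3 CPM under siFOXA1.1 and 37.3 and 36.8 CPM under siFOXA1.2 against 27.8 to 38.6 CPM in the controls. Of these 4, siFOXA1.1 replicate 1 alone was outside the range of the controls. The log2 fold change of GJB5 was 0.58 under siFOXA1.1 (SE 0.29, edgeR quasi-likelihood test, adjusted p = 0.267) and 0.17 under siFOXA1.2 (SE 0.29, adjusted p = 1.00).

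GJB2 had 4.17 and 8.97 CPM under siFOXA1.1 and 12.5 and 10.3 CPM under siFOXA1.2 in SCaBER, against 4.22 to 7.33 CPM in the controls. Both siFOXA1.2 libraries were above all controls, as in RT112, while the siFOXA1.1 libraries lay on either side of them. The log2 fold change of GJB2 was 0.30 under siFOXA1.1 (SE 0.56, edgeR quasi-likelihood test, adjusted p = 0.832) and 1.09 under siFOXA1.2 (SE 0.55, adjusted p = 0.974).

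GJB6 was low in SCaBER, with 8.71 and 1.16 CPM under siFOXA1.1 and 5.40 and 1.90 CPM under siFOXA1.2 against 3.75 to 7.95 CPM in the controls. Replicate 2 of each FOXA1 siRNA was below all controls and replicate 1 was not. The log2 fold changes of GJB6 were -0.17 (SE 0.87) and -0.62 (SE 0.88), with wide errors at 8 to 49 counts per library.

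GJA1 and GJC1 likewise overlapped with the SCaBER controls under both FOXA1 siRNAs. GJA1 had 16.1 and 9.83 CPM under siFOXA1.1 and 14.8 and 11.9 CPM under siFOXA1.2, against 3.75 to 15.4 CPM in the controls, with log2 fold changes of 0.49 (SE 0.48) and 0.52 (SE 0.48). GJC1 had 58.7 and 38.5 CPM under siFOXA1.1 and 29.8 and 35.8 CPM under siFOXA1.2, against 30.5 to 48.5 CPM, with log2 fold changes of 0.34 (SE 0.27) and -0.24 (SE 0.28). Under siControl.1 GJA1 was present in SCaBER (10.2 and 15.4 CPM) where it was nearly absent in RT112.

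Set against each other in SCaBER, 0 of 5 members passed between siFOXA1.1 and siFOXA1.2 (4.13% of all genes tested), 0 of 5 between the control siRNAs (0.0671%) and 0 of 5 with both FOXA1 siRNAs as 1 group (0.00746%). In each of these 3 comparisons edgeR gave 0 members an unadjusted p under 0.05 and DESeq2 called 0. GJC1, for example, differed by 0.58 between the FOXA1 siRNAs (SE 0.32, edgeR quasi-likelihood test, adjusted p = 0.391). GJA5 was at 0 in all 8 SCaBER libraries, where 3 counts correspond to 0.434 to 0.662 CPM, so a level under that could not have been seen.

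The effect of each FOXA1 siRNA was then set against itself between the lines. For siFOXA1.2, 0 of the 5 members that could be fitted differed between the lines (none at an unadjusted p under 0.05, and none by DESeq2), where 0.0453% of the 15464 genes tested did; the differences, RT112 minus SCaBER, went from -0.46 for GJB2 (SE 0.64) to 1.40 for GJA1 (SE 0.94). For siFOXA1.1, which the rule used, 1 of 5 passed (GJA1, lower in RT112), against 2.59% of all genes tested (1.55% lower). The fitted GJA1 difference was -6.82 (SE 1.75). In RT112 both siFOXA1.1 libraries held 0 counts of GJA1 and siControl.1 itself held 0 to 4, so this difference depends on siControl.2 there. The siFOXA1.1 differences were -1.48 for GJB2 (SE 0.66), -1.30 for GJC1 (SE 0.46), -1.26 for GJB6 (SE 0.75) and 0.16 for GJB5 (SE 0.45). Single SCaBER libraries moved them: without siFOXA1.1 replicate 1 there GJB6 turned to 0.81 and GJB5 was at 0.58, and without replicate 2 GJB5 turned to -0.15, GJB2 was at -0.84 and GJB6 at -2.12. The GJC1 difference was -2.07 without RT112 siFOXA1.1 replicate 1 and -0.80 without replicate 2. Without SCaBER siFOXA1.1 replicate 2 the count was 3, and it was 0 without RT112 siControl.1 replicate 1 or RT112 siFOXA1.1 replicate 2. The difference for GJA5 could not be fitted, since SCaBER held no count.

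The share of each connexin in the summed connexin TPM of a library shows how the make-up of the family differed. Summed connexin TPM was 125 ± 2.54 under siControl.1, 152 ± 36.3 under siControl.2, 122 ± 2.16 under siFOXA1.1 and 137 ± 2.71 under siFOXA1.2 in RT112 (SD, n = 2). Within a sum of similar size, GJA5 took 16.8% ± 4.94 under siFOXA1.1 (n = 2) against 0.732% ± 0.234 under the controls (n = 4), while GJB6 took 7.82% ± 3.55 against 23.1% ± 2.90. Under siFOXA1.2 GJB6 took 24.3% ± 2.41 and GJB5 20.5% ± 4.31, and GJA5 none. In SCaBER GJB5 took the largest share of TPM among the 6 members under every siRNA, at 23.0% to 30.6% on average, which rests on length scaling as described for the controls.

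**Figure D4:**
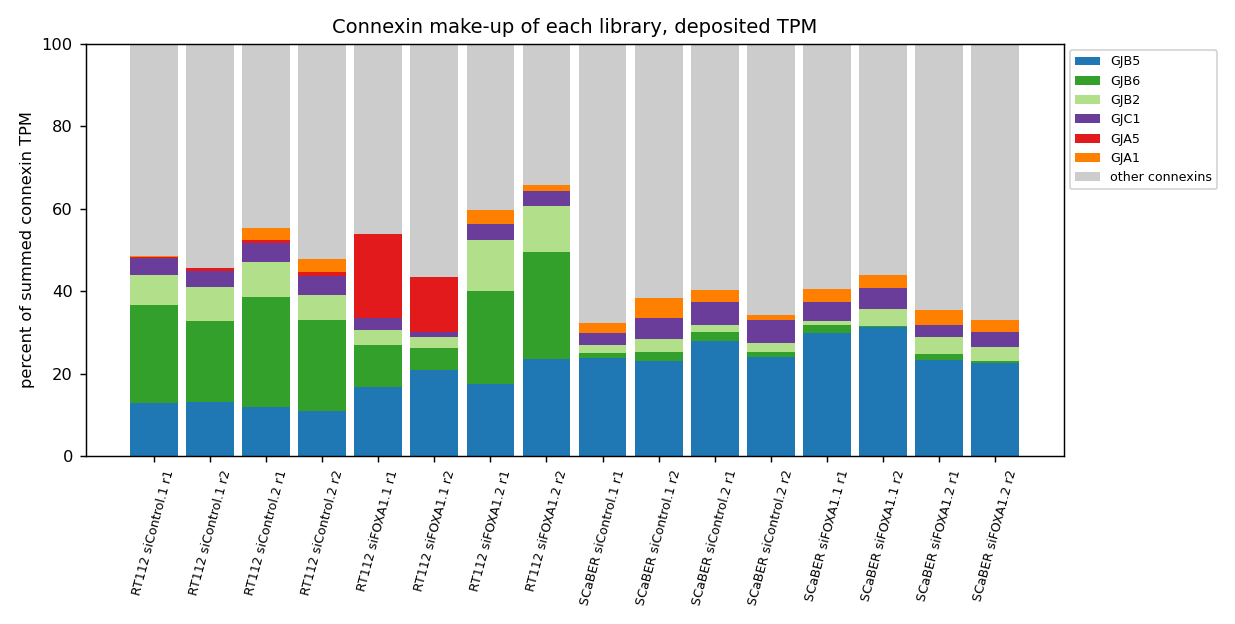
Percent of summed connexin TPM taken by each connexin in each library (stacked bars; r1 and r2 are replicates). GJA5 (red) takes 13.3% and 20.3% under siFOXA1.1 in RT112 and GJB6 (dark green) 5.31% and 10.3% there, whereas GJB5 (blue) has the largest TPM of the 6 members in every SCaBER library; grey stands for the 15 other connexins together.

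The other 15 connexins were read to place these values in the family. Of these, 8 were at 0 in all 16 libraries, 2 never exceeded 3 counts, and 5 reached 1 CPM in a group. GJB7 was at 0 in RT112 and reached 32 counts in SCaBER, and GJC3 had 15 counts in 1 RT112 siFOXA1.1 library.

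Pannexins form channels in the membrane of a single cell and do not resemble connexins in sequence. Under the controls PANX2 was higher in RT112 (log2 difference 3.33, SE 0.38, edgeR quasi-likelihood test, adjusted p = 5.80e-06) and PANX1 in SCaBER (-1.77, SE 0.30, adjusted p = 0.000201). PANX1 rose under siFOXA1.1 in SCaBER, from 147 to 219 counts in the controls to 327 and 669, a log2 change of 1.35 (SE 0.27, adjusted p = 0.00515), where 0 of the 5 connexins tested passed. The rise was not shared by siFOXA1.2 in SCaBER, at 0.09 (SE 0.28), and the FOXA1 siRNAs differed there by 1.26 (SE 0.32, adjusted p = 0.0369). In RT112 PANX1 changed by 0.61 under siFOXA1.1 (SE 0.41) and by 0.46 under siFOXA1.2 (SE 0.41), and neither passed.

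A list of 19 genes whose products bind, modify or remove connexins was counted in the same fits, with 18 tested within each line. Under siFOXA1.1 in RT112, 7 of 18 passed (4 higher, 3 lower), where 29.1% of all genes tested did, with a median log2 fold change of 0.29 against -0.02 over all genes. CDH1, the E-cadherin of the adherens junction beside which gap junctions form, rose by 1.32 (SE 0.12, edgeR quasi-likelihood test, adjusted p = 7.34e-08), and PRKCA, a protein kinase C that phosphorylates GJA1, fell by 3.16 (SE 0.63, adjusted p = 0.00066). Under siFOXA1.2 0 of 18 passed in RT112, against 1.78% of all genes, and 0 of 18 in SCaBER, against 0.0373% (2 each at an unadjusted p under 0.05). Under siFOXA1.1 in SCaBER 3 of 18 passed (1 higher, 2 lower), against 7.87% of all genes, among them CAV1, a caveolar protein (log2 fold change -0.89, SE 0.18, adjusted p = 0.00616).

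Between the lines 8 of the 18 partners passed (4 in each direction), a share near the 43.4% of all genes tested, with CAV1 at -2.97 (SE 0.22, edgeR quasi-likelihood test, adjusted p = 5.86e-08) and TJP1, the scaffold that binds the tail of GJA1, at -2.55 (SE 0.18, adjusted p = 5.07e-08), both lower in RT112. Between the control siRNAs 1 of 18 partners passed in RT112, against 2.11% of all genes: DBN1, an actin-binding protein that binds GJA1, at -1.60 (SE 0.38, adjusted p = 0.0326), and 0 of 18 passed in SCaBER (2 at an unadjusted p under 0.05), against 0.0671%. GJA1 had lower counts under siControl.1 as well. Under siFOXA1.1 in RT112, however, GJA1 was at 0 while DBN1 was not lower (log2 fold change 0.21, SE 0.32). A link between them was not tested. Between the FOXA1 siRNAs 8 of 18 partners passed in RT112 (4 in each direction), where 24.7% of all genes did, with PRKCA at -2.88, and 2 of 18 in SCaBER, where 4.13% did, with CAV1 at -1.16. The siFOXA1.1 effect differed between the lines in 1 of 19, against 2.59% of all genes: TJP1, by 1.39 (SE 0.32, adjusted p = 0.0219), higher in RT112.

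For each member, genes with the most similar levels were taken by Pearson's r of log2(CPM + 1) over the 16 libraries among 13357 genes, as a description, since the libraries share the lines and siRNAs. Among the genes most like GJA5 were ADGRF5 (r = 0.979), TM2D1 (0.952), ANXA6 (0.952) and CLIC5 (0.946). ADGRF5 repeated its pattern at a low level, with 29 and 47 counts under siFOXA1.1 in RT112, 1 to 7 in the controls and 0 under siFOXA1.2 and in SCaBER. ANXA6 had 80 and 103 counts under siFOXA1.1, and its other libraries were at 0 apart from 1 siControl.2 library with 11. Among the genes most like GJB6 were FOXC1 (0.958) and UBL4A (0.957). GJA1 was most like ITGA6 (0.905), GJB2 like KCNMB4 (0.898), GJB5 like TMEM132A (0.952) and GJC1 like TCEAL4 (0.923).

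Counts of similar genes could be split between copies. Of the 40-base words in GJA1 transcripts, 7.96% also occur in its pseudogene GJA1P1, which had 0 counts in all libraries. The words came from whole transcripts of a later GENCODE release than that of the counts. The share therefore does not describe the sequenced ends alone. GJC1 shared 14 words with GJB1, and the other 4 members shared none with another connexin.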

How the data were processed

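RNA was sequenced from the 3' end (QuantSeq forward) in 16 libraries. Per the labels reads were aligned with STAR 2.6.1a to hg38, and the deposited settings name GENCODE 29 and TrimGalore 0.6.2, while the study's methods name hg19; the text here uses names and RefSeq GRCh38.p14 positions. The siRNA dose is 10 nM per the labels and the methods give it in ng. The authors deposited raw counts per gene and TPM, TPM being scaled by gene length, which 3' reads do not follow.

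CPM were computed from counts over library totals. Counts were tested with edgeR 4.0.16 (R 4.3.3; quasi-likelihood, TMM, filterByExpr, minimum count 10, Benjamini-Hochberg, threshold 0.05), with the 4 siRNAs of a line as groups, in separate fits for pooled siRNAs and between lines. SE is the absolute log2 fold change over the square root of F. DESeq2 1.42.0 was an alternative. The scripts were tested on simulated data with a fixed spread, smaller than the common spread estimated in every fit of the real libraries. That check therefore does not cover recovery at the real spread. The changed genes there were not at the lowest counts, so members near 0 are not covered by that check. A level of 0 was set against 3 counts per library, and the higher group entered by its mean. Bounds of this kind cover counting error only, not the spread between libraries. All members were named in every comparison; relatives if at 1 CPM in a group; partners as the 2 largest changes past the threshold; similar genes as the top 5 for GJA5 and top 3 for others, among genes at 3 CPM in 2 libraries. Members and lists were chosen with earlier results of these data known. Some genes this rule names are not reported here. Contrasts the choice used carry no p for members.

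The labels call the replicate number an experiment batch, so it may pair the libraries. The main fits did not use this pairing, which entered only as a block in an alternative fit. Deviations of same-numbered libraries correlated at -0.000394 to 0.0453 over 6 pairs in RT112 and at 0.0183 to 0.308 over 6 pairs in SCaBER. No 2 replicates agreed within sampling noise (chi-square per gene 8.56 to 36.8).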

Additional observations from a re-analysis of the deposited data

Results flagged for a closer look

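In 22 groups of 4 libraries, 2 had a library far from the others by Dixon's test, which flags about 1 group in 20 by chance. GJB5 in the SCaBER siFOXA1 libraries reached 60.4 CPM in siFOXA1.1 replicate 1, against a group median of 37.3 CPM. GJC1 in the RT112 siControl libraries reached 34.5 CPM in siControl.2 replicate 1, against a group median of 23.7 CPM.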

How the results depend on the processing

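Each member's value was recomputed without each library in turn, with other size factors (RLE or library totals alone), without the filter on low counts, with a filter on the 2 targets (chosen after seeing the data), with DESeq2 and with the replicate number as a block. Of 1053 such values 976 kept their direction and their side of the threshold or, where no test was made, moved by less than the spread between replicates, and of 197 counts of members 188 stayed within 1.5 times. The line differences of GJB2, GJB5 and GJB6 kept their calls throughout, while the count of members past the threshold between the lines was 3 to 5 without each control library. That of GJC1 was lost under the replicate block (log2 difference -0.60, adjusted p = 0.0643), and also without the filter (-0.59, adjusted p = 0.0661) and without 6 of the 8 control libraries. The block changed no other call of a member, and raised the count of all genes called under siFOXA1.1 in SCaBER from 1055 to 1442 and under siFOXA1.2 there from 5 to 24. Between the RT112 controls 1 member (GJA1) passed without the filter, 1 with DESeq2, and 0 to 1 without each library in turn. The siFOXA1.1 difference between the lines was called in 0 to 3 members without each library. The cause was not tested. Direction turned with library totals alone for GJB5 between the RT112 controls (-0.030) and between the FOXA1 siRNAs there (-0.0998), for GJB2 with both FOXA1 siRNAs as 1 group in RT112 (-0.0356), and with the block for GJB6 between the SCaBER controls (0.23). Without each library in turn, log2 values crossed 0 as follows. GJB6 under siFOXA1.2 in RT112 went from -0.091 to 0.29. Between the RT112 controls GJB2 went from -0.52 to 0.46, GJB5 from -0.24 to 0.36 and GJB6 from -0.65 to 0.11, and between the FOXA1 siRNAs there GJB5 went from -0.26 to 0.24. With both FOXA1 siRNAs as 1 group in RT112 GJA1 went from -1.74 to 0.21 and GJB2 from -0.35 to 0.25. The siFOXA1.1 difference between the lines went from -2.12 to 0.81 for GJB6 and from -0.15 to 0.58 for GJB5. Under siFOXA1.1 in SCaBER GJB2 went from -0.31 to 0.71, GJB6 from -2.30 to 0.67 and GJC1 from -0.039 to 0.65. Between the FOXA1 siRNAs in SCaBER GJA1 went from -0.46 to 0.32, GJB5 from -0.013 to 0.76 and GJB6 from -1.67 to 1.39, and between the controls there GJB5 went from -0.24 to 0.27 and GJB6 from -0.52 to 0.56. GJC1 with both FOXA1 siRNAs as 1 group in SCaBER went from -0.19 to 0.20, and its siFOXA1.2 difference between the lines from -0.054 to 0.21. Depth limits GJA5 and GJA1 most, since 3 counts are 0.394 to 0.662 CPM.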
